A study of Mus musculus with 9 samples.

Results

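The genes of glycolysis and of the response to low oxygen were taken as 36 listed mouse genes, matched by symbol among the 47069 genes counted in every library. They cover the 2 glucose transporters Slc2a1 and Slc2a3, 15 enzymes that act between glucose and pyruvate, the regulators Pfkfb3 and Pfkfb4, 5 genes of pyruvate and lactate handling, 4 genes of oxygen sensing and 8 targets of that sensing system. All 36 passed the filter on low counts that left 18204 genes for testing.

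Glycolysis splits glucose into pyruvate in the cytosol and yields ATP without oxygen, and tumours often run it even where oxygen is present. Where oxygen is short, the prolyl hydroxylases Egln1 and Egln3 no longer mark the alpha subunits Hif1a and Epas1 for destruction, and the stabilised HIF complex binds enhancers and promoters of many of the listed genes. HIF activity is set mainly at the protein level, so the mRNA of Hif1a itself is not a readout of it. Healthy prostate has an unusual citrate metabolism, and prostate tumours are known for taking up comparatively little glucose until they are advanced.

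RNA was sequenced from frozen primary prostate tumours (n = 3), from proximal metastases in epididymal fat (n = 3) and from distal metastases (n = 3). The tissue label of the distal group names the diaphragm, whereas the protocol text names lung. Every library came from C57BL/6 mice aged about 9 to 10 months that carried Ctnnb1pc(ex3)delta/+ together with a further engineered allele, so the Ctnnb1 allele lacking exon 3, which gives a stabilised beta-catenin, and the further allele are shared by all groups. There was no normal prostate, no wild type and no tumour-free fat, lung or muscle among the groups, and the promoter that drives the recombination is not given in the sources used here. The labels call the samples matched but do not say which came from the same mouse. Libraries are numbered here within a group in accession order, and the numbers pair nothing.

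Library totals ran from 28334730 to 40408723 counts. Primary tumour 2 stood apart in composition: the gene model CT010467.1 took 2.28% and Lars2 1.87% of its counts, while the next highest library had 0.236% and 0.238%. The share of mitochondrially encoded genes was 0.131%, where the other libraries had 0.868% to 1.18%. Seminal vesicle markers summed to 10566 CPM in primary tumour 3 and to at most 27.5 CPM elsewhere. The summed markers of prostate luminal epithelium were present in every library, at 1745 to 10620.5 CPM, with the highest sum in primary tumour 2. Skeletal muscle markers summed to 8.15, 894 and 1207 CPM in distal metastases 1 to 3 and to at most 8.04 CPM in the other groups. Lung epithelial markers summed to 3.43 to 5.22 CPM in the distal metastases, 4.19 to 4.98 CPM in the proximal and 5.16 to 24.5 CPM in the primary tumours, with Sftpa1 and Nkx2-1 at 0 in all libraries and Sftpc below 0.1 CPM. Because the tissue is bulk, fewer cells of a type and less RNA per cell cannot be told apart.

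The upstream parts of 5 promoters are shown because their genes sit on both sides of the pattern described next: Pgk1, Egln3 and Adm were highest in primary tumour 2, whereas Bnip3 and P4ha1 were highest in a distal metastasis. They were chosen after the values had been seen. The sequences are RefSeq windows on GRCm38.p6, read 5′ to 3′ on the gene's strand and trimmed to the bases before the annotated gene start. Capitals mark every ACGTG or GCGTG on either strand, the core letters of the HIF response element. They are Pgk1 at chrX:106186850-106187099 on the plus strand, Egln3 at chr12:54203875-54204124 on the minus strand, Adm at chr7:110627407-110627656 on the plus strand, Bnip3 at chr7:138909520-138909756 on the minus strand and P4ha1 at chr10:59323046-59323295 on the plus strand.
Pgk1: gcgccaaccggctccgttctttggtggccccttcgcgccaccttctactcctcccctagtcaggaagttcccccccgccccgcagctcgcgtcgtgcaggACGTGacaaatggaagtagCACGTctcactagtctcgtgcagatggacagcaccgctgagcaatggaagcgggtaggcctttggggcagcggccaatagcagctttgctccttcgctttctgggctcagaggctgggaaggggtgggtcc
Egln3: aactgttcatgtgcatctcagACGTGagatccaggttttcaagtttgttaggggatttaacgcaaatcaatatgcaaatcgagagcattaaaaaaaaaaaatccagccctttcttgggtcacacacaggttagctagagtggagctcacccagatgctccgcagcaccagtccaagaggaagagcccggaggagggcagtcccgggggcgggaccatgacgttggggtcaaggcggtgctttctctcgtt
Adm: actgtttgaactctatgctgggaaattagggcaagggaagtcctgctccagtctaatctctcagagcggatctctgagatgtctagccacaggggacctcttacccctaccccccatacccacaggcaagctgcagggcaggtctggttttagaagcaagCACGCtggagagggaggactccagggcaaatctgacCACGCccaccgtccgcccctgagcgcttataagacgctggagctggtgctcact
Bnip3: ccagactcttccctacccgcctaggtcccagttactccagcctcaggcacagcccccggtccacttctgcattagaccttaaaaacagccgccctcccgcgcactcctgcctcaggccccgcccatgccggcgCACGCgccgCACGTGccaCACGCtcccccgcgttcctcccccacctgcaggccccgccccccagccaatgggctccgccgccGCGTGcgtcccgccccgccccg
P4ha1: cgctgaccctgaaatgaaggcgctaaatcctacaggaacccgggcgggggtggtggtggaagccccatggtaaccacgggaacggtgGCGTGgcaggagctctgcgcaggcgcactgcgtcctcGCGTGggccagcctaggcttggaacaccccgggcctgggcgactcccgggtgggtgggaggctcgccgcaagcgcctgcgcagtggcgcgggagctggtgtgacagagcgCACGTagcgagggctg
The Bnip3 stretch holds 5 match starts, that of P4ha1 3, those of Pgk1 and Adm 2 each and that of Egln3 1, where the palindrome CACGTG counts once per strand. The order of these 5 did not hold over the list. Among genes highest in primary tumour 2 the largest number in a window of 300 bases ran from 0 in Gpi1 to 7 in Ldha. Pfkfb3, Aldoc, Ddit4 and Eno2, highest in a proximal metastasis, had at most 4, 3, 2 and 0. Windows of 300 bases were found for 33 of the 36 genes, 47 windows in all, and for Slc2a3, Epas1 and Ndrg1 there was no entry. The core letters occurred in 38 of the 47 windows (80.9%) and in 14380 of the 32851 windows of all genes (43.8%). By gene, 30 of 33 had a match in at least 1 window (90.9%), against 46.7% of 27025 genes. A match of 5 letters is a description of the sequence and not a bound site, and the base composition of the windows was not compared.

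The most visible pattern in these genes lay between single libraries and not between the groups. Primary tumour 2 had the highest level among the 3 primary tumours for 29 of the 36 genes, against 34.1% of all tested genes. The median gene of the list stood 3.36-fold above the mean of the other 2 primary tumours (1.75 on the scale of log2(CPM + 0.5)), where the median of all tested genes stood at -0.17. Among the 15 enzymes the median was 4.10-fold, and 13 of the 15 were highest there. Distal metastasis 2 showed the opposite: it was the lowest of its group for 31 of 36 genes, against 30.9% of all tested genes, with a median shift of -1.04 on the log2 scale against 0.01 for all tested genes. Primary tumour 1 was the lowest of its group for 29 of the 36, against 32.2% of all tested genes. The 36 genes summed to 6501, 30273 and 8777 CPM in the primary tumours, to 11521, 9547 and 12213 CPM in the proximal and to 13945, 6226 and 11575 CPM in the distal metastases. CPM are counts scaled to a common library total with edgeR's trimmed mean of M values, so that 1 CPM stands for 28.3 to 40.4 counts before that scaling. The summed level of the highest primary tumour was therefore above every metastasis and that of the lowest was below 5 of the 6.

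**Figure D1:**
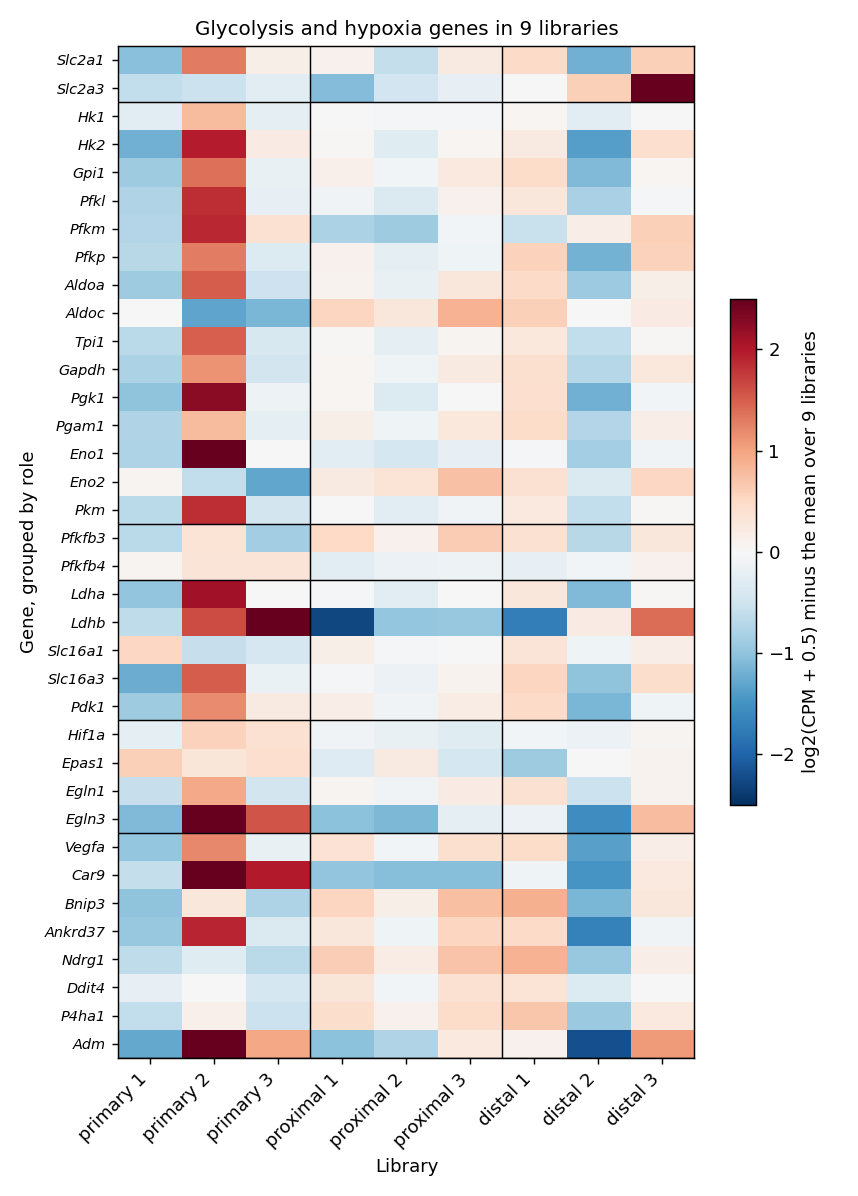
Level of each of the 36 genes in each of the 9 libraries, as log2(CPM + 0.5) minus the gene's mean over the libraries, with genes grouped by role and colours capped at both ends of the scale. Primary tumour 2 is high for most glycolytic enzymes, and distal metastasis 2 is low for most genes.

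**Figure D2:**
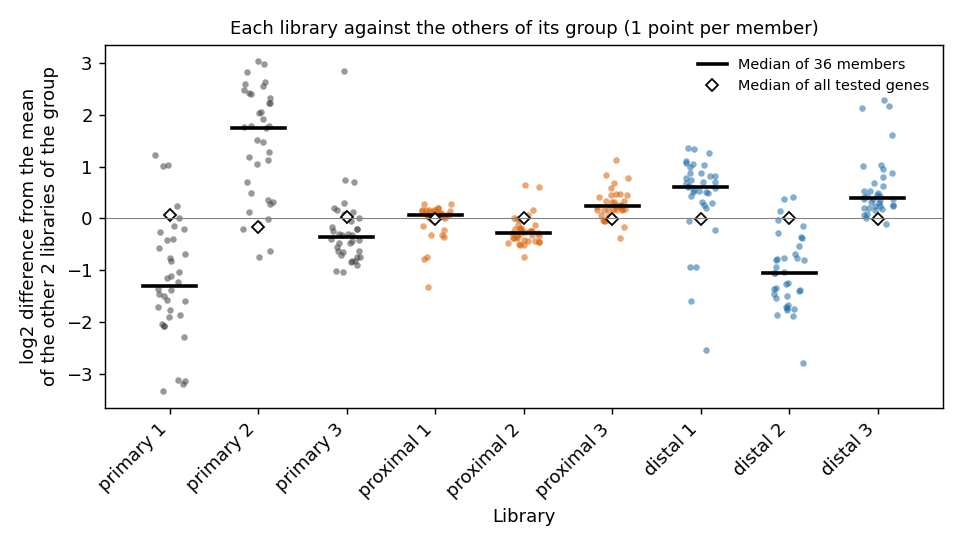
Shift of each library against the other 2 libraries of its group on the log2 scale, for the 36 genes (points) beside the median of all tested genes. The median of the 36 genes is 1.75 in primary tumour 2 and -1.04 in distal metastasis 2.

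The spread within groups was accordingly wide. The median SD of log2 CPM over the 36 genes was 1.07 in the primary tumours, 0.207 in the proximal and 0.738 in the distal metastases, where all tested genes had medians of 0.492, 0.144 and 0.138. The proximal metastases were the most even group for these genes. Skeletal muscle markers were high in distal metastases 2 and 3 (894 and 1207 CPM), and their part in the levels of the listed genes was not tested. The luminal epithelial sum of 10620.5 CPM, the CT010467.1 and Lars2 shares and the low mitochondrial share went with the high glycolytic levels of primary tumour 2, and their part in them was not tested.

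Glucose enters through Slc2a1 (GLUT1), the broadly expressed transporter, and Slc2a3 (GLUT3), a high-affinity form found in neurons and white blood cells. Slc2a1 (ENSMUSG00000028645, chr4:119108711-119137983, plus strand) was measured at 78.1, 399.6 and 178 CPM in primary tumours 1 to 3, 173, 107 and 188 CPM in the proximal and 225, 70.1 and 243 CPM in the distal metastases. The 3 groups overlapped throughout. Slc2a3 (ENSMUSG00000003153, chr6:122727809-122801640, minus strand) was at 2.77, 2.93 and 3.63 CPM in primary tumours 1 to 3, 1.85, 3.09 and 3.84 CPM in the proximal and 4.48, 7.07 and 29.5 CPM in the distal metastases. All 3 distal values lay above all proximal and all primary values, and distal metastasis 3 was far above the other 2. The distal against primary difference in Slc2a3 was 2.14 (SE 0.69, edgeR adjusted p = 0.202) on the log2 scale, and the distal against proximal difference was 2.22 (SE 0.69, edgeR adjusted p = 1). Without distal metastasis 3 they were 0.90 and 0.98. Within the distal group neutrophil markers had the same order as Slc2a3, summing to 41.2, 146 and 617 CPM in distal metastases 1 to 3. Elsewhere they summed to 17.6 to 102 CPM, with the highest sum in primary tumour 2, where Slc2a3 was at 2.93 CPM. Red blood cell markers (444, 1699 and 5856 CPM) and skeletal muscle markers (8.15, 894 and 1207 CPM) had that order in the distal group too. Neuroendocrine and nerve markers summed to 15.6, 15.6 and 351 CPM in distal metastases 1 to 3 and to at most 36.3 CPM elsewhere. The part of any of these cell types in the Slc2a3 level was not tested.

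Hexokinase traps glucose as its phosphate. Hk1, the constitutive form, ran from 176 to 371 CPM, with the maximum in primary tumour 2. Hk2, the form that insulin and HIF induce in other tissues, was at 42.2, 385 and 113 CPM in primary tumours 1 to 3, 99.5, 79.9 and 101 CPM in the proximal and 114, 37.2 and 131 CPM in the distal metastases. Gpi1, the isomerase of the next step, was at 306, 1476 and 499 CPM in the primary, 623, 541 and 675 in the proximal and 785, 265 and 588 in the distal libraries. For both genes primary tumour 2 was the highest of the 9 libraries and distal metastasis 2 the lowest.

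Phosphofructokinase commits sugar to glycolysis and has liver (Pfkl), muscle (Pfkm) and platelet (Pfkp) forms. Pfkl, the most abundant of them per length at a median of 42.2 RPKM, was at 177, 1067 and 259 CPM in primary tumours 1 to 3, 282, 232 and 321 CPM in the proximal and 362, 169 and 292 CPM in the distal metastases. Pfkp was at 50.4, 197 and 64.6 CPM in the primary, 88.5, 70.2 and 76.1 in the proximal and 121, 35.4 and 121 in the distal libraries, and Pfkm at 13.7, 86.5 and 30.1 CPM in the primary, 13, 12.2 and 21.9 in the proximal and 15.4, 25.8 and 35.1 in the distal libraries. All 3 forms peaked in primary tumour 2. In distal metastasis 2 Pfkl and Pfkp were the lowest of the distal group while Pfkm was not. Within that group Pfkm had the order of the skeletal muscle sums (8.15, 894 and 1207 CPM) and of the red blood cell sums (444, 1699 and 5856 CPM). The part of these cells in the Pfkm values was not tested. The bifunctional enzymes Pfkfb3 and Pfkfb4 make and break fructose 2,6-bisphosphate, the activator of phosphofructokinase. Pfkfb3 was at 125, 255 and 109 CPM in the primary, 285, 217 and 312 in the proximal and 261, 123 and 243 in the distal libraries, and primary tumour 2 was not its highest library. Pfkfb4 stayed between 8.67 and 13.4 CPM.

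The aldolases cleave fructose 1,6-bisphosphate. Aldoa, the muscle-type form, had the highest median level per length of the 36 genes (453 RPKM) and was at 672, 3558 and 872 CPM in primary tumours 1 to 3, 1319, 1091 and 1512 CPM in the proximal and 1743, 659 and 1386 CPM in the distal metastases. Aldoc (ENSMUSG00000017390, chr11:78322968-78327781, plus strand), the brain-type form, was at 227, 91.9 and 103 CPM in primary tumours 1 to 3, 331, 278 and 422 CPM in the proximal and 346, 231 and 263 CPM in the distal metastases. Every metastasis was above every primary tumour for Aldoc, which was lowest in primary tumour 2, where Aldoa was highest. Mean Aldoc was 141 ± 75 CPM (SD, n = 3) in the primary tumours and 312 ± 68.8 CPM (SD, n = 6) in the metastases. The difference was 1.14 (SE 0.33, edgeR adjusted p = 0.0974) on the log2 scale for all metastases, 1.29 (SE 0.37, edgeR adjusted p = 0.17) for the proximal and 0.99 (SE 0.36, edgeR adjusted p = 0.236) for the distal group. These 2 groups share the primary tumours as reference.

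The payoff steps run from triose phosphate to pyruvate. Tpi1, which interconverts the triose phosphates, was at 531, 2391 and 640.0 CPM in the primary, 862, 722 and 888 in the proximal and 1015, 551 and 865 in the distal libraries. Gapdh, the dehydrogenase often used as a reference transcript, was at 90.2, 339 and 114 CPM in the primary, 161, 145 and 183 in the proximal and 205, 94.8 and 187 in the distal libraries. The mouse genome holds many Gapdh pseudogenes, so its count is uncertain. Both genes again peaked in primary tumour 2. Pgk1 (ENSMUSG00000062070, chrX:106187100-106203699, plus strand), the first ATP-forming kinase, was at 150.3, 1439.9 and 277 CPM in primary tumours 1 to 3, 310.0, 237 and 304 CPM in the proximal and 404, 130.3 and 286 CPM in the distal metastases. Primary tumour 2 exceeded the next highest library by more than any within-metastasis spread, and the other 8 libraries overlapped. Pgam1, the mutase, ran from 296 to 860.5 CPM. Named pseudogenes also exist for Aldoa, Pgk1, Pgam1 and Ldha.

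Enolase makes phosphoenolpyruvate. Eno1 (ENSMUSG00000063524, chr4:150236721-150248879, plus strand), the ubiquitous form, was at 227, 2367 and 392 CPM in primary tumours 1 to 3, 319, 287 and 338 CPM in the proximal and 379.6, 215 and 366 CPM in the distal metastases. Primary tumour 2 was far above every metastasis and primary tumour 3 slightly above, while primary tumour 1 lay within the range of the metastases. The difference of all metastases from the primary tumours was -1.65 (SE 0.63, edgeR adjusted p = 0.171), and without primary tumour 2 it was 0.03. In the distal group alone it was -1.64 (SE 0.78, edgeR adjusted p = 0.309), and 0.05 without that tumour. Eno2, the neuron-type form, had low counts, at 7.09, 4.22 and 2.44 CPM in the primary, 7.94, 8.73 and 11.5 in the proximal and 8.95, 5.17 and 9.8 in the distal libraries, with its 2 lowest values in primary tumours 2 and 3. Pkm, the pyruvate kinase, was at 1225, 7029 and 1425 CPM in primary tumours 1 to 3, 1943, 1641 and 1841 CPM in the proximal and 2309.7, 1272 and 2011 CPM in the distal metastases. Its difference was -0.81 (SE 0.54, edgeR adjusted p = 0.334) and became 0.47 without primary tumour 2.

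Many directions therefore depended on single libraries. In metastases against primary tumours 9 of the 36 log2 fold changes were positive and 27 negative, with a median of -0.40, where 47.4% of all tested genes were positive and 52.6% negative with a median of -0.04. Without primary tumour 2, 27 of the 36 were positive, against 50% of all tested genes. Primary tumour 2 was the highest of its group for 29 of the 36 genes. Leaving it out therefore raises most of these fold changes by construction. The reference then held primary tumours 1 and 3, of which primary tumour 1 was the lowest of its group for 29 of the 36. Signs that did not turn included Car9, Egln3, Ldhb, Adm and Epas1 (negative) and Aldoc, Eno2, Bnip3 and Ndrg1 (positive). With library totals in place of the scaling 12 were positive, and with limma-voom and sample quality weights 21 were (53.4% and 50.2% of all tested genes). The same held for each site: 9 positive in both the proximal and the distal comparison (47.2% and 48% of all tested genes) became 26 and 29 without primary tumour 2 (49% and 50.5%). The 2 sites share the primary tumours, so these are not independent counts. In distal against proximal metastases 15 were positive (47.2% of all tested genes), and 30 were without distal metastasis 2 (46.9%).

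**Figure D3:**
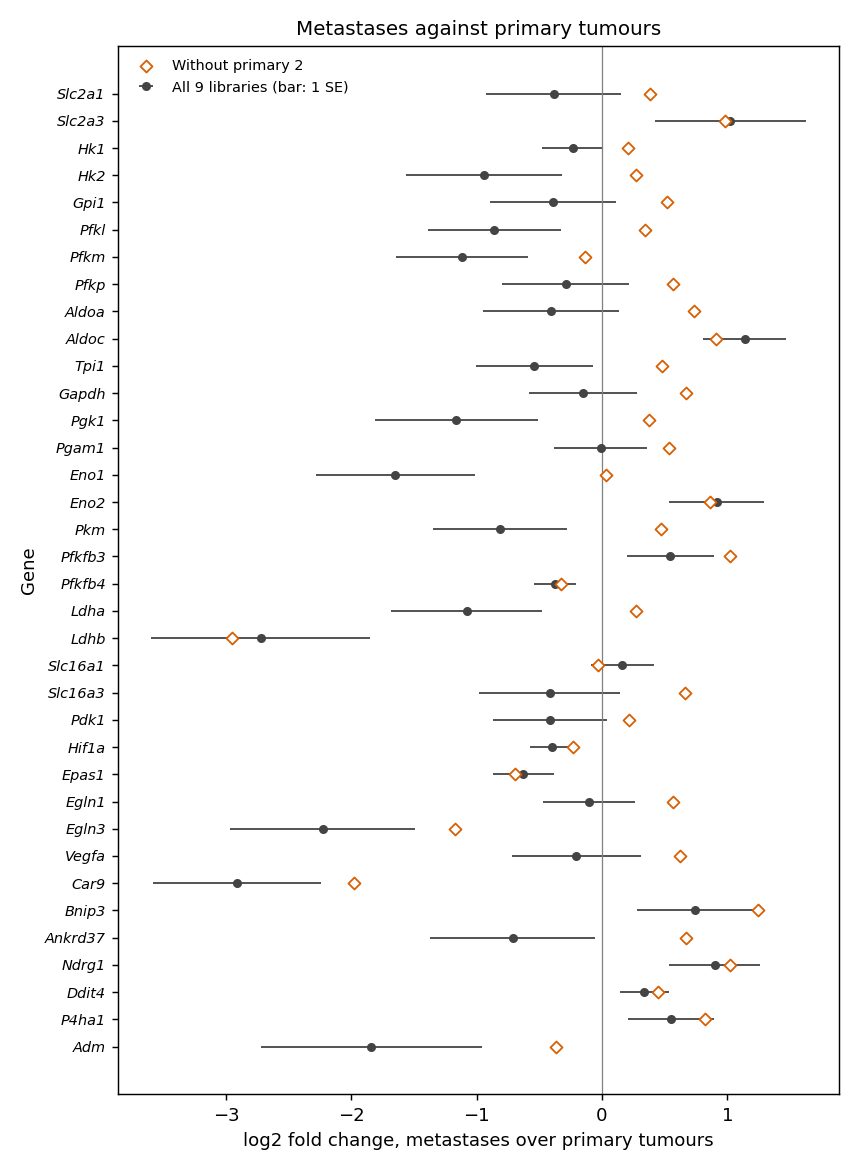
Log2 fold change of the 36 genes in the 6 metastases against the primary tumours, with all 3 primary tumours and without primary tumour 2; bars show the standard error of the former. With all libraries 27 of 36 lie below 0, and without primary tumour 2 27 of 36 lie above 0.

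Pyruvate becomes lactate through the dehydrogenase subunits Ldha and Ldhb, where Ldha favours lactate formation, and leaves the cell through the monocarboxylate transporters. Ldha (ENSMUSG00000063229, chr7:46841475-46855627, plus strand) was at 456, 3881 and 909.8 CPM in primary tumours 1 to 3, 870.5, 749 and 904 CPM in the proximal and 1101, 418 and 924 CPM in the distal metastases. Its difference in all metastases was -1.08 (SE 0.60, edgeR adjusted p = 0.275), and it was 0.27 without primary tumour 2. Ldhb (ENSMUSG00000030246, chr6:142490249-142507957, minus strand) was at 5.77, 29.5 and 97.8 CPM in primary tumours 1 to 3, 1.51, 4.47 and 4.58 CPM in the proximal and 2.43, 10.7 and 25.2 CPM in the distal metastases. All proximal values lay below all primary values, while the distal values overlapped the primary ones. Ldhb differed by -3.65 (SE 1.16, edgeR adjusted p = 0.193) in the proximal and by -2.72 (SE 0.87, edgeR adjusted p = 0.123) in all metastases, and without primary tumour 3 by -2.31 and -1.39. Its maximum fell in primary tumour 3, the library with the high seminal vesicle sum of 10566 CPM, whose part in it was not tested. Within the distal group Ldhb had the order of the skeletal muscle sums (8.15, 894 and 1207 CPM) and of the red blood cell sums (444, 1699 and 5856 CPM). The part of these cells in the distal Ldhb values was not tested either.

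The exporter Slc16a3 (MCT4) peaked in the same library as Ldha, at 70.1, 475 and 147 CPM in the primary, 163, 149.7 and 177 in the proximal and 240.0, 82.5 and 227 in the distal libraries. Slc16a1 (MCT1), which carries lactate in either direction, was at 88.8, 41.2 and 46 CPM in the primary, 68.3, 59.9 and 62.2 in the proximal and 77.5, 57.2 and 69.4 in the distal libraries. It was lowest in primary tumour 2, where Slc16a3 was highest. Pdk1, the kinase that closes the entry of pyruvate into mitochondria, was at 50.5, 213 and 110.2 CPM in the primary, 105, 88.2 and 108 in the proximal and 131, 42.2 and 87.5 in the distal libraries, with the maximum in primary tumour 2 and the minimum in distal metastasis 2.

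Among the genes of oxygen sensing, Hif1a ran at 118, 204 and 179 CPM in the primary, 128, 121 and 112 in the proximal and 130.4, 124 and 145 in the distal libraries. Epas1 (HIF-2 alpha), which is rich in endothelium, was at 57, 46.5 and 50 CPM in primary tumours 1 to 3, 29.7, 43.8 and 27.6 CPM in the proximal and 20, 37.9 and 39.7 CPM in the distal metastases. All proximal and all distal values of Epas1 lay below all primary values. The difference was -0.63 (SE 0.24, edgeR adjusted p = 0.175) in all metastases and -0.65 (SE 0.29, edgeR adjusted p = 0.292) in the distal group. Endothelial markers summed to 275 to 360 CPM in the primary tumours, 156 to 229 CPM in the proximal and 147 to 246 CPM in the distal metastases. Like Epas1, these sums were lower in every metastasis than in every primary tumour. Within the primary tumours they did not follow Epas1, since the sum was highest in primary tumour 2 (360 CPM), where Epas1 was lowest of that group (46.5 CPM). The part of endothelial cells in the Epas1 values was not tested. The hydroxylase Egln1 was at 136, 394 and 147 CPM in the primary, 214, 191 and 236 in the proximal and 265, 139.6 and 216 in the distal libraries. Egln3 (ENSMUSG00000035105, chr12:54178981-54203860, minus strand), itself a HIF target, was at 28.7, 459 and 187 CPM in primary tumours 1 to 3, 30.4, 28.6 and 53.3 CPM in the proximal and 56.7, 20.9 and 107 CPM in the distal metastases. Primary tumour 1 lay within the range of the metastases and primary tumours 2 and 3 above it. Egln3 differed by -2.59 (SE 0.94, edgeR adjusted p = 0.228) in the proximal and by -2.23 (SE 0.74, edgeR adjusted p = 0.131) in all metastases, and without primary tumour 2 by -1.53 and -1.18.

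The 8 targets split evenly, 4 with their maximum in primary tumour 2 and 4 with it in a metastasis. Car9 (ENSMUSG00000028463, chr4:43506966-43513729, plus strand), the membrane carbonic anhydrase used as a hypoxia marker, was at 5.02, 70.4 and 32.4 CPM in primary tumours 1 to 3, 3.71, 3.52 and 3.48 CPM in the proximal and 7.25, 2.5 and 9.37 CPM in the distal metastases. Primary tumours 2 and 3 were above every metastasis and primary tumour 1 was within the range of the metastases, though above the proximal ones. Mean Car9 was 35.9 ± 32.8 CPM (SD, n = 3) in the primary tumours and 4.97 ± 2.7 CPM (SD, n = 6) in the metastases. The difference was -2.91 (SE 0.67, edgeR adjusted p = 0.0565) for all metastases, -3.33 (SE 0.88, edgeR adjusted p = 0.155) for the proximal and -2.49 (SE 0.85, edgeR adjusted p = 0.216) for the distal group. Without primary tumour 2 these were -1.98, -2.40 and -1.56. Adm, the vasodilator peptide adrenomedullin, was at 6.39, 122 and 32.1 CPM in the primary, 7.65, 9.47 and 19.2 in the proximal and 17.5, 3.12 and 34.6 in the distal libraries. Vegfa, the angiogenic growth factor, was at 110.1, 495 and 188 CPM in the primary, 276, 205 and 282 in the proximal and 295, 83.2 and 242 in the distal libraries, and Ankrd37, a small HIF target, at 15, 110.2 and 22.6 CPM in the primary, 35.6, 27.1 and 42.7 in the proximal and 40.7, 8.79 and 27.6 in the distal libraries. For these 4 genes primary tumour 2 was the highest of the 9 libraries and distal metastasis 2 the lowest.

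Among the 4 with a maximum in a metastasis, Bnip3 (ENSMUSG00000078566, chr7:138890836-138909519, minus strand), a mitochondrial protein that promotes mitophagy, was at 183, 447 and 214 CPM in primary tumours 1 to 3, 531, 403 and 619 CPM in the proximal and 681, 165 and 445 CPM in the distal metastases. Ndrg1 (ENSMUSG00000005125, chr15:66929318-66969640, minus strand), a stress-induced gene known for suppressing metastasis in some settings, was at 339, 427 and 332 CPM in primary tumours 1 to 3, 812, 606 and 869 CPM in the proximal and 968, 275 and 594 CPM in the distal metastases. All 3 proximal values of Ndrg1 lay above all primary values, with a difference of 1.06 (SE 0.41, edgeR adjusted p = 0.244). In the distal group metastases 1 and 3 were above the primary tumours and metastasis 2 below all of them. Ddit4 (REDD1), an inhibitor of mTORC1, was at 349, 399.6 and 298 CPM in the primary, 500.1, 385 and 527 in the proximal and 514, 318 and 408 in the distal libraries. P4ha1, a collagen prolyl hydroxylase subunit, was at 74.2, 124 and 77.8 CPM in the primary, 155, 122 and 156 in the proximal and 183, 59 and 135 in the distal libraries. Distal metastasis 2 was below every other distal value for all 8 targets, and its median shift over the 8 was -1.61 on the log2 scale.

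**Figure D4:**
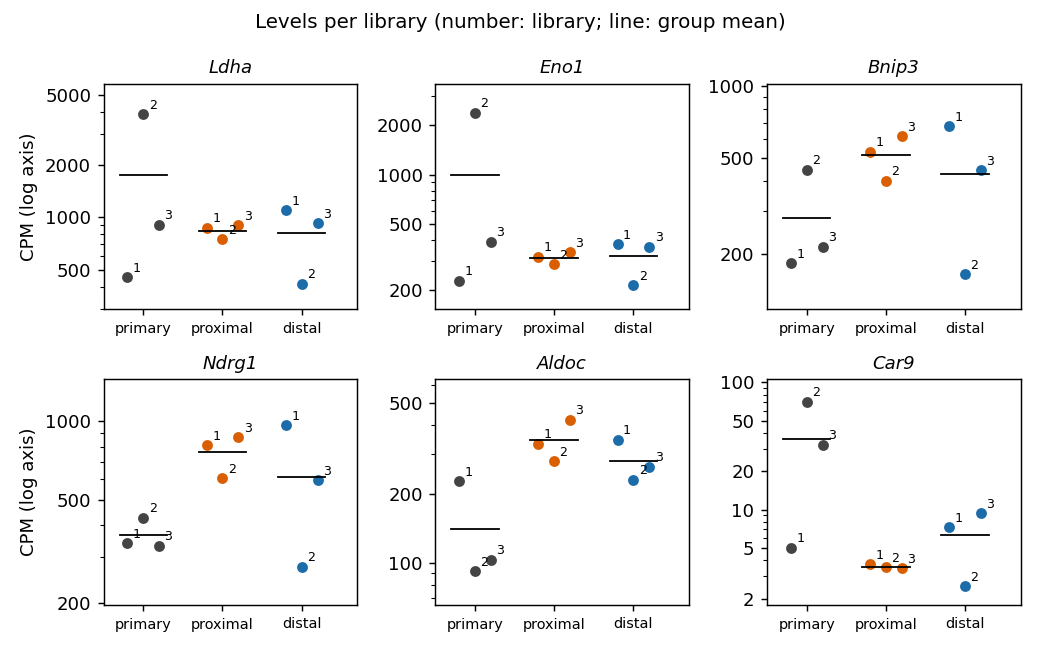
CPM of Ldha, Eno1, Bnip3, Ndrg1, Aldoc and Car9 in each library, on log axes, with the library number beside each point and a line at the group mean. Primary tumour 2 is highest for Ldha, Eno1 and Car9, and distal metastasis 2 is lowest of its group in all 6 panels.

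No gene of the list passed an adjusted p of 0.05 in edgeR's quasi-likelihood test in any of the 4 comparisons. The share of all tested genes that passed was 0.0494% in proximal against primary, 0.0879% in distal against primary, 0% in distal against proximal and 3.71% in metastases against primary. At an unadjusted p under 0.05 the numbers were 7, 3, 1 and 9 of 36, where all tested genes gave 18.2%, 17.4%, 2.06% and 24.6%. The counts of 7, 1 and 9 were close to those background shares, and the count of 3 was below. Groups did not overlap for 7, 3, 1 and 2 of the genes, against 19.4%, 18.8%, 7.62% and 10.2% of all tested genes. Here the count of 7 was close to its background share, and the counts of 3, 1 and 2 were below theirs. In distal against proximal the next lowest p after Slc2a3, with log2 differences in brackets, belonged to Ldhb (1.86, SE 1.08, edgeR adjusted p = 1), Pfkm (0.69, SE 0.63, edgeR adjusted p = 1), Car9 (0.83, SE 0.81, edgeR adjusted p = 1) and Pfkfb3 (-0.37, SE 0.39, edgeR adjusted p = 1). Without distal metastasis 3 the Ldhb difference was 0.90.

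Other tools called some of the genes. DESeq2 called 4, 2, 0 and 5 of the 36 in the 4 comparisons in the same order, against 8.16%, 7.93%, 0.467% and 14.2% of all tested genes. In the joint comparison these were Aldoc as higher and Pfkfb4, Car9, Ldhb and Egln3 as lower. Limma-voom called none, and with sample quality weights it called 3, 2, 0 and 3, against 19.8%, 17.2%, 0% and 21.3%. Without primary tumour 1 edgeR called 9, 7, 0 and 9 of them, against 28.7%, 27.4%, 0% and 34.8% of the genes tested in that fit. Eno2, Aldoc and Slc16a1 were the higher ones, and Hif1a, Car9, Egln3 and Eno1 were lower in each comparison with the primary tumours. In that fit the primary group consisted of tumours 2 and 3. Over the alternatives the adjusted p for metastases against primary tumours ran from 0.000612 to 0.183 for Car9 and from 0.00244 to 0.274 for Aldoc.

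Ratios between paralogues do not depend on how libraries are scaled, and 10 were compared. As a ratio of RPKM, Eno2 to Eno1 was 0.0357, 0.00205 and 0.00718 in the primary tumours, 0.0285, 0.0349 and 0.0391 in the proximal and 0.027, 0.0276 and 0.0306 in the distal metastases. Aldoc to Aldoa was 0.302, 0.0231 and 0.106 in the primary tumours, 0.224, 0.227 and 0.249 in the proximal and 0.177, 0.312 and 0.17 in the distal metastases. Both were lowest in primary tumour 2 and close to the metastases in primary tumour 1. Slc16a3 to Slc16a1 was 0.657, 9.58 and 2.67 in the primary tumours, 1.99, 2.08 and 2.36 in the proximal and 2.58, 1.2 and 2.72 in the distal metastases, highest in primary tumour 2 and below 1 in primary tumour 1. The Hk2 to Hk1 ratio was 0.342, 1.48 and 0.885 in the primary tumours, 0.666, 0.544 and 0.698 in the proximal and 0.732, 0.299 and 0.886 in the distal metastases. It passed 1 in primary tumour 2 alone.

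The 10 ratios were compared between the 6 metastases and the 3 primary tumours by exact two-sided permutation tests with Benjamini-Hochberg adjustment over 10. The smallest exact p this design allows is 0.024, so a single ratio could not have passed 0.05 after adjustment, and the absence of a call says little. Pfkfb4 to Pfkfb3 had the lowest p (exact p = 0.048, adjusted p = 0.476), with a mean log2 difference of -0.98. For Eno2 to Eno1 the difference was 1.94 (exact permutation p = 0.143, adjusted p = 0.476).

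**Figure D5:**
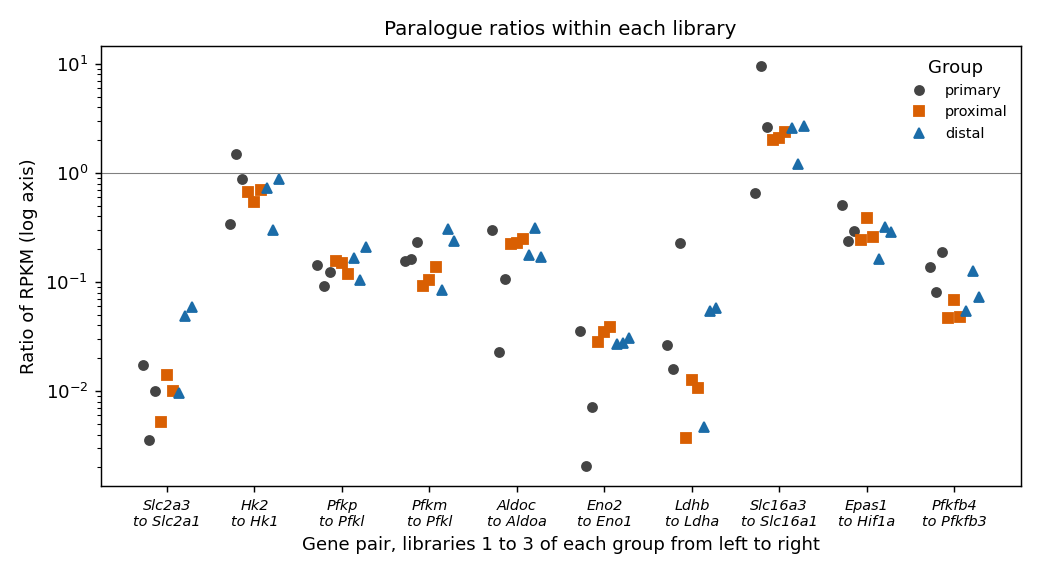
Ratio of RPKM, on a log axis, for the 10 pairs of paralogues in each library, with libraries 1 to 3 of each group from left to right. The ratios of Eno2 to Eno1 and of Aldoc to Aldoa are lowest in primary tumour 2, and the metastases overlap the primary tumours in all 10.

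Levels per length, as the median RPKM over the 9 libraries, placed Aldoa first at 453, then Pkm at 368, Tpi1 at 313, Pgam1 at 277 and Ldha at 273. Among the targets Ddit4 led at 228 RPKM and Bnip3 followed at 197 RPKM. Slc2a3 was the lowest of the 36, at 0.501 RPKM, and Eno2 stood at 1.69 RPKM.

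Other genes of the same processes were read from lists that hold none of the 36. Of 36 further genes of glycolysis, gluconeogenesis and pyruvate entry, all tested, 2 fell in the metastases against the primary tumours and none rose, where 3.71% of all tested genes passed. Of the 36 fold changes 23 were positive with a median of 0.17, against 47.4% and -0.04 for all tested genes. None passed in the other 3 comparisons, where edgeR gave an unadjusted p under 0.05 for 1, 2 and 1 as higher and 6, 7 and 0 as lower (proximal, distal, distal against proximal). All tested genes gave 3.86%, 3.89% and 1.79% as higher and 14.3%, 13.5% and 0.269% as lower. In metastases against primary tumours DESeq2 called 7 lower, limma-voom 1 lower, and limma-voom with sample quality weights 4 higher and 6 lower. DESeq2 called 5 lower in the proximal comparison with primary tumours and 1 higher and 5 lower in the distal one. There limma-voom with sample quality weights called 3 higher and 6 lower in the proximal and 4 higher and 6 lower in the distal metastases. Without primary tumour 1 edgeR called 3 higher and 7 lower (proximal), 5 higher and 6 lower (distal) and 5 higher and 7 lower (joint). In that fit 28.7%, 27.4% and 34.8% of the tested genes passed in either direction. In the same order DESeq2 called 0.747%, 1.13% and 2.66% of all tested genes higher and 7.42%, 6.81% and 11.6% lower. For limma-voom with sample quality weights these shares were 8.12%, 6.52% and 8.43% higher and 11.7%, 10.7% and 12.8% lower. Both genes that fell in the main test encode fructose 1,6-bisphosphatase, which runs the phosphofructokinase step backwards in gluconeogenesis. Fbp2, the muscle-type form, was at 8.27, 10.2 and 9.68 CPM in primary tumours 1 to 3, 0.104, 0.944 and 0.416 CPM in the proximal and 0.025, 0.214 and 0.567 CPM in the distal metastases, and its groups did not overlap (-4.70, SE 0.77, edgeR adjusted p = 0.0252). Fbp1, the liver-type form, was at 7.38, 416 and 162 CPM in primary tumours 1 to 3, 6.35, 2.32 and 5.24 CPM in the proximal and 11.2, 7.76 and 5.1 CPM in the distal metastases. Primary tumour 1 lay within the range of the metastases for Fbp1 (-5.00, SE 0.92, edgeR adjusted p = 0.0302), and without primary tumour 2 the difference was -3.81. Leaving out any single library other than primary tumour 1 ended both calls, with edgeR adjusted p up to 0.110 for Fbp2 and up to 0.118 for Fbp1, and limma-voom did not call Fbp1 (adjusted p = 0.174).

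Of 57 further genes linked to hypoxia that were tested, none passed in edgeR in any comparison. At an unadjusted p under 0.05, 8 were higher and 5 lower in metastases against primary tumours, against 6.04% and 18.6% of all tested genes. In that comparison DESeq2 called 7 higher and 2 lower, limma-voom none, and limma-voom with sample quality weights 2 in each direction. Of all tested genes DESeq2 called 2.66% higher and 11.6% lower there, and limma-voom with these weights 8.43% and 12.8%. In proximal against primary, distal against primary and distal against proximal DESeq2 called 2, 4 and 1 higher and 1, 0 and 0 lower. Its shares of all tested genes were 0.747%, 1.13% and 0.445% higher and 7.42%, 6.81% and 0.022% lower. Proximal and primary groups did not overlap for 15 of the 57 as higher and 1 as lower, against 8.68% and 10.7% of all tested genes. In distal against primary these numbers were 6 and 0, against 8.4% and 10.4%. Limma-voom with sample quality weights called 2, 1 and 0 higher and 2, 3 and 0 lower in the 3 comparisons named for DESeq2. Its shares of all tested genes were 8.12%, 6.52% and 0% higher and 11.7%, 10.7% and 0% lower. Without primary tumour 1 edgeR called 10 higher and 4 lower (proximal), 7 higher and 5 lower (distal) and 9 higher and 8 lower (joint). In either direction 28.7%, 27.4% and 34.8% of the genes tested in that fit passed. The 3 with the lowest p were Ppp1r3c, a glycogen-targeting phosphatase subunit, at 1.33 (SE 0.35, edgeR adjusted p = 0.0756), the lysyl oxidase Loxl2 at 1.35 (SE 0.36, edgeR adjusted p = 0.078) and the transcriptional regulator Cited2 at -1.56 (SE 0.43, edgeR adjusted p = 0.089). The low reading of distal metastasis 2 also appeared in this list, as the lowest of its group for 43 of 57 genes (75.4%, against 30.9% of all tested genes), with a median shift of -0.51 on the log2 scale. Primary tumour 2 had a median shift of 0.38 here and of -0.28 in the further glycolysis list.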

How the data were processed

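Gene counts per library were deposited by the authors as whole numbers, 1 library a file, per the file headers, with 47069 Ensembl genes. Per the submitters' processing notes the build was GRCm38.p3 and the tools included HTSeq 0.6.0, DESeq2 1.14.1 and TopHat2 2.1.0, beside Bowtie2 2.2.6.0. What each did, the annotation release and the strand setting were not given in the sources used here. Overlapping and antisense genes (as at Ankrd37 with Ufsp2, or Aldoa with Fam57b) and genes with pseudogene copies are therefore uncertain. Symbols, gene coordinates and exonic lengths came from GENCODE M21 on GRCm38, which held 46488 of the IDs. Counts were tested with edgeR 4.0.16 (TMM scaling, filterByExpr with a minimum count of 10, robust quasi-likelihood F test over all 9 libraries, 6 residual degrees of freedom), with Benjamini-Hochberg adjustment over 18204 genes and a threshold of 0.05. CPM and RPKM were computed from the counts with the scaled totals; RPKM used exonic lengths. Metastases against primary took the mean of both sites. Group differences on the log2 scale were edgeR estimates. Their SE was taken as the absolute difference over the square root of the F statistic. Levels and shifts of single libraries on a log2 scale used CPM + 0.5, and ratios used counts + 0.5. DESeq2 1.42.0, limma 3.58.1, other scalings and filters, and leaving out each library were the alternatives, and those for Fbp1 and Fbp2 were added after seeing the data. The fit was tested on simulated data with the same dispersion for all genes and no library set apart. That test does not show how the fit behaves with primary tumours as uneven as these. Nothing says that libraries came from separate mice across groups, and the labels call the samples matched. All p-values treat the libraries as independent, which may not hold. Those of edgeR, DESeq2 and limma set a group difference against the variation between these libraries. The permutation p-values set it against reassigned group labels. The genes described in full were those called, those with the 5 lowest p in each comparison and the most abundant of each step; from the further lists, those called, or else the 3 with the lowest p. The 36 genes and all lists, markers included, were chosen with earlier results of these data known. The descriptions of single libraries, the marker sums set beside single genes and the printed promoters were chosen after their values were seen. In the hypoxia list 58 of 59 symbols matched (Ero1a, an alias of the listed Ero1l, did not), and 57 were tested. The further allele of the mice's genotype and the values of a gene from the hypoxia list are not reported here.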

Additional observations from a re-analysis of the deposited data

How the results depend on the processing

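No paired analysis was possible because the labels do not say which samples share a mouse. The number of genes called in proximal against primary, 9 in the main test, was 15 with median-ratio size factors, 1486 with DESeq2, 1 with limma-voom, 3607 with sample quality weights, 26 without a filter, 23 with a filter of 1 CPM in 3 libraries, 22 without robust shrinkage and 0 with only the compared groups. In distal against primary, 16 became 10 with library totals alone, 1444 with DESeq2, 1 with limma-voom, 3126 with sample quality weights and 0 with only the compared groups. In distal against proximal, 0 became 85 with DESeq2. In metastases against primary, 676 became 2590 with DESeq2, 97 with limma-voom and 3871 with sample quality weights. Among the 36 genes DESeq2 called 4, 2 and 5 in the proximal, distal and joint comparisons with primary tumours, and limma-voom with sample quality weights called 3, 2 and 3. Leaving out 1 library at a time, the genes called ranged from 0 to 5447 (proximal), 0 to 5203 (distal), 0 to 38 (distal against proximal) and 22 to 6618 (joint). Of the 36 genes, 0 to 9, 0 to 7, 0 to 0 and 0 to 9 were called, with the maxima of 9, 7 and 9 without primary tumour 1.

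Signs of the log2 fold changes in metastases against primary tumours changed with the library left out, and the ranges over the 9 fits were Aldoa -0.76 to 0.73, Ankrd37 -1.12 to 0.67, Egln1 -0.34 to 0.57, Eno1 -2.10 to 0.032, Gapdh -0.45 to 0.67, Gpi1 -0.75 to 0.52, Hk1 -0.40 to 0.21, Hk2 -1.38 to 0.27, Ldha -1.51 to 0.27, Pdk1 -0.77 to 0.21, Pfkl -1.24 to 0.34, Pfkp -0.60 to 0.57, Pgam1 -0.27 to 0.53, Pgk1 -1.60 to 0.38, Pkm -1.18 to 0.47, Slc16a1 -0.034 to 0.61, Slc16a3 -0.82 to 0.67, Slc2a1 -0.76 to 0.38, Tpi1 -0.87 to 0.48, Vegfa -0.55 to 0.62. For Eno1 in distal against primary the range was -2.08 to 0.046. Signs also turned with library totals alone (Pgam1 0.16, Egln1 0.080, Gapdh 0.049), with limma-voom (Pgam1 0.076, Egln1 0.044, Gapdh 0.059), with sample quality weights (Pgam1 0.26, Pfkp 0.26, Tpi1 0.25, Vegfa 0.21, Slc16a3 0.19, Aldoa 0.42, Egln1 0.41, Pkm 0.23, Gpi1 0.14, Hk1 0.12, Ankrd37 0.22, Gapdh 0.42) and without a filter (Pgam1 0.046). Over all 4 comparisons, 144 fold changes in all, 59 changed sign without primary tumour 2, 26 without distal metastasis 2, 38 with sample quality weights, 12 with limma-voom and 11 with library totals. Only these counts are given for fold changes of the single-site comparisons that the report does not name, a choice made after the sign changes had been seen. The cause was not tested. The lowest count of any of the 36 genes in a library was 58, for Ldhb, so counting error weighs most on genes at such low levels, and its part in the spread was not computed. With 3 libraries a group the spread between primary tumours sets the precision.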

Other observations

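In the further glycolysis list Bpgm and Pgam2 were highest in distal metastasis 3; these genes and those set beside them were picked after their values were seen. Bpgm, which makes 2,3-bisphosphoglycerate in red blood cells, was at 98.3, 38.7 and 61.0 CPM in the primary, 92.2, 79.9 and 110.7 CPM in the proximal and 96.4, 138.6 and 261 CPM in the distal libraries. Red blood cell markers summed to 444, 1699 and 5856 CPM in distal metastases 1 to 3 and to 211 to 537 CPM in the other libraries. Pgam2, the muscle phosphoglycerate mutase, was at 1.98, 6.62 and 8.74 CPM in the distal libraries, in the same order as the skeletal muscle sums of 8.15, 894 and 1207 CPM. The muscle-type forms Eno3 and Fbp2 had the same order within the distal group, but their highest distal value lay below the highest value elsewhere. Eno3, the muscle enolase, was at 62.0, 66.1 and 72.4 CPM in the distal and at 76.5, 75.6 and 67.0 CPM in the proximal libraries, and Fbp2 was at 0.025 to 0.567 CPM in the distal and 8.27 to 10.2 CPM in the primary libraries. Neither Bpgm nor Pgam2 passed the adjusted threshold in edgeR in any comparison, and the part of these cells in the values was not tested.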
